A study of Mus musculus with 9 samples.

Results

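Null-only peaks are CTCF peaks on the autosomes whose level was higher in *Smchd1* del/del neural stem cells (NSCs) than in the control, without a rise of like size in the MommeD43-GFP mutant. A peak was counted as null-only when the mean of its 3 deposited values was at least -0.5, when del/del exceeded control by at least 1 (2-fold), and when MommeD43-GFP was less than 0.5 (1.41-fold) above control, with no lower limit. Levels and differences are given in log2 RPM, where RPM is the read number scaled to a library of 1 M. The rule found 360 peaks among 217130 autosomal and 225769 merged peaks, or 360 (0.336%) of the 107125 autosomal peaks that reached the level minimum. The members were therefore selected on the very differences given below, which are a description and not a test.

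The libraries came from primary female NSCs grown from E14.5 cortices of C57Bl/6 embryos. CTCF chromatin immunoprecipitation and sequencing (ChIP-seq) was performed on 2 *Smchd1* del/del lines, 3 *Smchd1* MommeD43-GFP/MommeD43-GFP lines and 3 *Smchd1* GFP/GFP control lines, and 1 input library came from a control line. The del/del cells carried a floxed *Smchd1* allele that was deleted in culture by a Cre retrovirus followed by puromycin selection, and their genotype label names no GFP tag. The MommeD43-GFP allele is an alanine-to-glutamate substitution in the ATPase region made by CRISPR on the GFP-tagged allele, and the controls carry that tagged allele alone. Deletion of *Smchd1*, retroviral selection and the missing tag cannot be told apart in the null. The table holds 1 pooled value per genotype, the authors' mean over its libraries, and no value for the input. No spread between lines could be measured, so no difference carries a p-value. Library sizes read back from the lowest values averaged 50 M reads in del/del, 49.2 M in MommeD43-GFP and 41.7 M in control. Each ± below is the counting standard error from these reads and leaves out variation between lines. The intervals given for shares and medians treat the members as independent, although some are neighbours. They leave out variation between lines too.

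CTCF is a zinc finger protein that binds a long, GC-rich motif and halts cohesin as it extrudes chromatin loops, so that pairs of CTCF sites mark the borders of many chromatin domains. SMCHD1 is a non-canonical SMC protein with a GHKL ATPase domain. It is known for silencing of the inactive X chromosome, of imprinted genes and of clustered gene families such as the protocadherins, and for limiting CTCF occupancy at some of its targets. In antigen receptor loci, CTCF sites near the variable (V) segments are known in lymphocytes for their part in locus contraction and recombination.

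Of the 360 peaks, 64 held a match to the core CTCF motif, a 12-letter pattern searched on both strands. The matches below are shown as examples from peaks whose values are given in the text and from the largest group of neighbouring members, and they are not the full list of matches. Each is 30 bases of GRCm38 read on the strand of the match, with the 12 matched bases in capitals.
Cyp2b19, downstream (chr7:26778827-26778856, minus strand): gcaacatgcCCACCAGATGGCccatagcaa
AC127693.2, nearby (chr17:69563324-69563353, plus strand): tacatgtatCCACTAGATGGCagacgtgat
Gm8016, nearby (chr13:68372808-68372837, plus strand): ataaaaacaCCACCAGATGGCagcctggga
Gm26520, nearby (chr12:3359358-3359387, minus strand): caaatctggCCAGCAGAGGGCgatatggct
Satb1, intron (chr17:51778080-51778109, minus strand): caggcatttCCACCAGGGGGCactcccctc
Ighv2-2 (chr12:113588186-113588215, minus strand): tgatcaggaCCAGCAGGGGGCagtgaagcc
Ighv2-3 (chr12:113611103-113611132, minus strand): tgctcacaaCCAGCAGGGGGCgctgaggac
Ighv5-6 (chr12:113625427-113625456, minus strand): cacccaggaCCAGCAGGGGGCgcagagagc
Ighv5-9-1 (chr12:113736035-113736064, minus strand): catccaggaCCAGCAGGGGGCgcagagagc
Ighv5-15 (chr12:113826567-113826596, minus strand): cacattgggCCAGCAGGGGGCgataaaagc

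The 12 capitals are identical in the 5 heavy-chain V sites and vary among the other members. Some 30-base sites occurred more than once: the site of Ighv5-6 was repeated letter for letter in the Ighv5-12 peak, and a site in the peak at *Gm40976* recurred in the peak near *Ctsj*.

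Across the null-only peaks the median level was 1.20 in del/del, 0.35 in MommeD43-GFP and 0.02 in control. Over all 107125 autosomal peaks at the level minimum the medians were 0.39 in del/del, 0.43 in MommeD43-GFP and 0.43 in control. The null difference ranged from 1.0 to 2.07 with a median of 1.11, and 170 members exceeded control by 1.1 or less. Only 17 reached 1.5. The MommeD43-GFP difference ranged from -1.97 to 0.50 with a median of 0.36, and 273 members had MommeD43-GFP at least 0.25 above control. MommeD43-GFP was below control at 23 members. Of all 107125 peaks, 21028 had MommeD43-GFP at least 0.25 above control and 53572 had it below control. Most members thus had MommeD43-GFP above control, more often than peaks at large. Both differences subtract the same control value, so a rule on the null difference favours peaks with a low control. The median MommeD43-GFP level of members (0.35) was itself not above that of all peaks (0.43).

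The whole null-raised class, del/del at least 1 above control, held 1469 autosomal peaks (1.37%). Of these, 793 had MommeD43-GFP 0.5 to 1 above control and 316 had it at least 1 above. In all, 416 peaks (0.388%) had MommeD43-GFP at least 1 above control. The null-only peaks therefore lay at the edge of a continuous cloud, as the plot of both differences shows, and were not set apart from it by a gap.

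**Figure D1:**
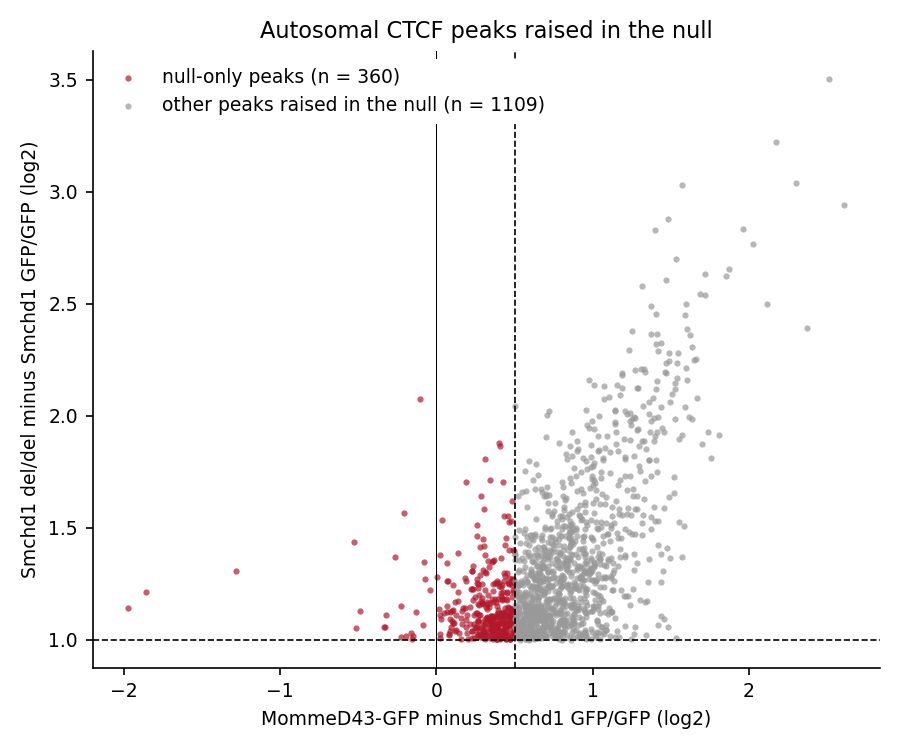
Each point is an autosomal CTCF peak at least 1 (log2) higher in *Smchd1* del/del than in control, with the MommeD43-GFP minus control difference across and the del/del minus control difference up, both in log2. Dashed lines mark the thresholds of 0.5 and 1. The 360 null-only peaks crowd against both lines, and 23 lie left of 0.

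Peaks on each side of a threshold had nearly the same values. Just inside the null threshold were peaks at *Ighv7-2* (difference 1.00164) and *Ltbp1* (1.00187), and just outside it were an intronic peak of *Dlgap1* (0.99996) and an intergenic peak on chromosome 18 (0.99954). At the MommeD43-GFP threshold, peaks near *Gm25798* (0.49955) and in *Dync1i1* (0.49908) were inside, against *Antxr2* (0.50011) and *Gm45189* (0.50042) outside. At the level threshold, *Gm43725* (mean -0.49174) and *P3h2* (-0.49573) were inside, against *B020031H02Rik* (-0.50525) and *Gm27648* (-0.51950) outside. A median member rested on 115 reads per library in del/del, 62.8 in MommeD43-GFP and 42.3 in control, and the median counting error of its null difference was 0.16. The null difference exceeded 1 by more than 2 counting errors at 43 members, and the MommeD43-GFP difference was under 0.5 by that margin at 57. Both held at 10 members: the peaks labelled *Rasgrp3*, *Mrgpra4*, *Gm38199*, *AA414992*, *Gm45104*, *Gm8016*, *Gm26520*, *Gm4036* and *Tnfrsf8*, and an unnamed one on chromosome 7.

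The largest null difference was at an intronic peak of *Rasgrp3*, which encodes a guanine nucleotide exchange factor for Ras and Rap GTPases (chr17:75459901-75461400). Its level was 1.82 in del/del, -0.36 in MommeD43-GFP and -0.25 in control. The del/del difference was 2.07 ± 0.16 and the MommeD43-GFP difference was -0.11 ± 0.19, so MommeD43-GFP and control differed by less than the counting error. At an intronic peak of *Asic2*, which encodes an acid-sensing sodium channel subunit, the level was 2.13 in del/del, 0.64 in MommeD43-GFP and 0.33 in control (chr11:81845101-81846600). A further intronic peak of *Asic2* was also a member, at 0.82 in del/del, -0.05 in MommeD43-GFP and -0.34 in control. A peak downstream of *Cyp2b19*, a cytochrome P450 gene, had 2.58 in del/del, 1.11 in MommeD43-GFP and 0.71 in control (chr7:26777701-26779800), with the motif shown above. The other peaks of the 10 with the largest null difference were near *4933404I11Rik*, *Gm37930*, *Gm38430* and *AC127693.2*, in *Gm7257*, and more than 50 kb from any transcript start on chromosomes 3 and 11. At these, del/del exceeded control by 1.58 to 1.86 and MommeD43-GFP by 0.19 to 0.48.

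At a few members MommeD43-GFP was far below control while del/del was above it. In an intron of *Erich5* the level was 1.49 in del/del, -1.63 in MommeD43-GFP and 0.34 in control (chr15:34469101-34470300). At a start of *Asap2*, which encodes an Arf GTPase-activating protein, it was 1.66 in del/del, -1.42 in MommeD43-GFP and 0.44 in control (chr12:20989501-20990550). Near *Gm4036* it was 2.63 in del/del, 0.04 in MommeD43-GFP and 1.32 in control (chr12:21613501-21614700). Near *AA414992* and at *Gm49698* the MommeD43-GFP differences were -0.53 ± 0.19 and -0.51 ± 0.24. Of these 5 peaks 3 lay on chromosome 12, and 4 held 75-base stretches that occur again in the genome, at 8.70% to 50% of the windows tested. At the *Erich5* peak no window was repeated.

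**Figure D2:**
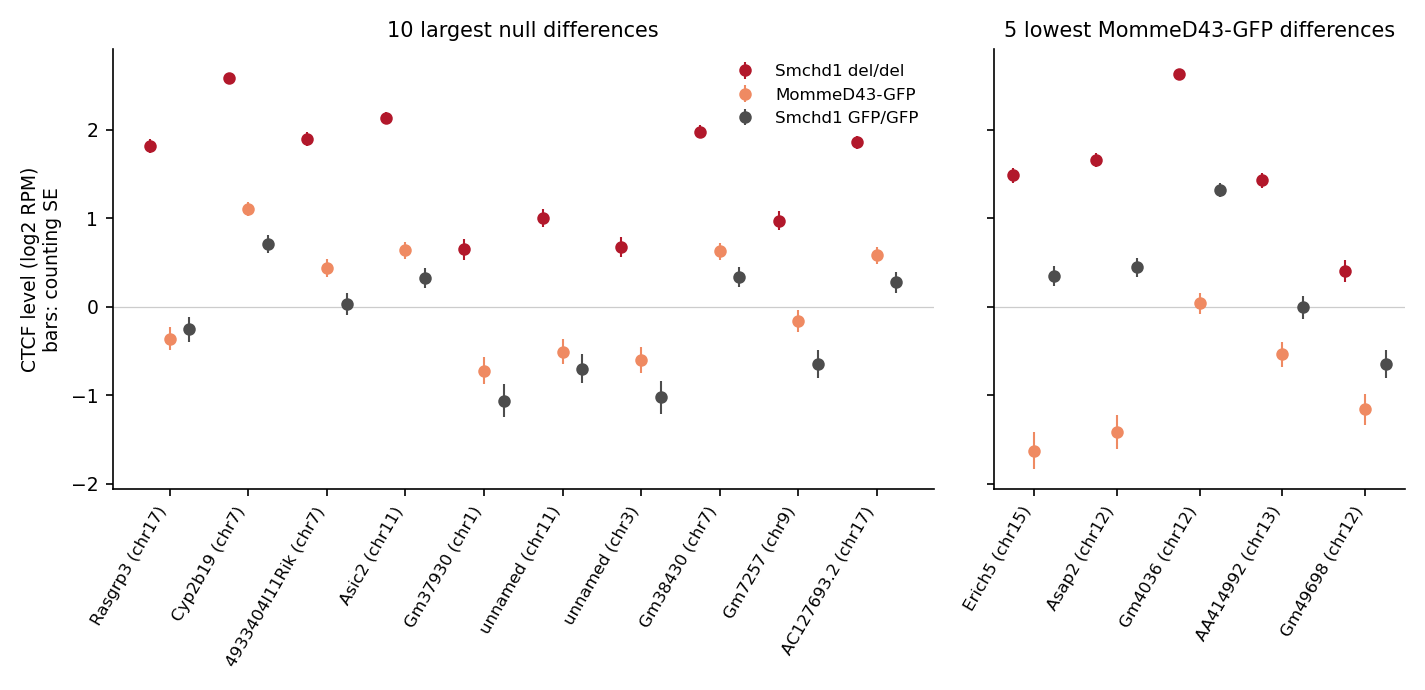
CTCF level in log2 RPM for the 10 null-only peaks with the largest del/del minus control difference (left) and the 5 with the lowest MommeD43-GFP minus control difference (right), with the counting standard error as bars. In the left panel MommeD43-GFP lies near control and del/del above both, and in the right panel MommeD43-GFP is the lowest of the 3 genotypes at every peak.

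The 23 members below control in MommeD43-GFP had varied labels. They included an intron of *Satb1*, which encodes a chromatin-organizing homeodomain protein (0.97 in del/del, -0.38 in MommeD43-GFP and -0.31 in control). Another was a peak at *Cd209c*, a C-type lectin gene (2.41 in del/del, 0.80 in MommeD43-GFP and 1.29 in control). At *Hist1h4c*, a histone H4 gene, the levels were 1.31 in del/del, 0.10 in MommeD43-GFP and 0.30 in control. Of the 23, 7 were on chromosome 7, 4 on chromosome 12, and 9 held a repeated 75-base window. Among all 360 members 43 were on chromosome 7 and 29 on chromosome 12. A repeated window was held by 95 (26.4%) of the 360 and by 19.9% of all autosomal peaks at the level minimum.

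Null-only peaks were of middle length. They ran from 750 to 3750 bases on the 150-base grid of the file, with a median of 1200 bases (95% interval from the ordered lengths, 1200 to 1350). The median was 1350 bases over all autosomal peaks at the level minimum, whose lengths reached 60300 bases. Null-raised peaks had a median of 1050 bases where MommeD43-GFP was 0.5 to 1 above control and 900 where it was at least 1 above. By length, 0 of 1367 peaks under 750 bases were members, then 0.270% of peaks from 750 to under 1050 bases, 0.548% from 1050 to under 1500, 0.461% from 1500 to under 2250 and 0.0707% of those of 2250 bases or more. Values were not divided by length, so longer peaks hold more reads. Among the longest members were those at *Gpr139* and *Tbx3* (3750 bases each), near *Ighd1-1* (2700 bases) and in *Gm2675* (2550 bases). *Gpr139*, an orphan G-protein-coupled receptor gene of the brain, had 3.02 in del/del, 2.45 in MommeD43-GFP and 1.99 in control. *Tbx3*, a T-box transcription factor gene, had 3.11 in del/del, 2.42 in MommeD43-GFP and 2.10 in control. Of the peaks with length 750, an intronic peak of *Brinp1*, a neuronal gene linked to cell-cycle control, had 0.72 in del/del, -0.11 in MommeD43-GFP and -0.55 in control.

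The members were lower in GC than peaks at large. Their median GC content was 42.8% (95% interval 42.4 to 43.2), against 48.2% over all autosomal peaks at the level minimum. Among peaks between 750 and 3750 bases, members made up 2.10% of those under 40% GC and 1.28% of those from 40% to under 45%. They made up 0.154% of those from 45% to under 50% GC and 0.0637% of richer peaks. The other null-raised peaks had lower medians still, 42.0% where MommeD43-GFP was 0.5 to 1 above control and 39.9% where it was at least 1 above. Among the 17 members with a null difference of at least 1.5 the median GC content was 45.1%. The part of base composition in the levels was not tested beyond the alternative that centres differences by GC content. After that centring 335 peaks met the rule, and 170 of the 360 members were among them.

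**Figure D3:**
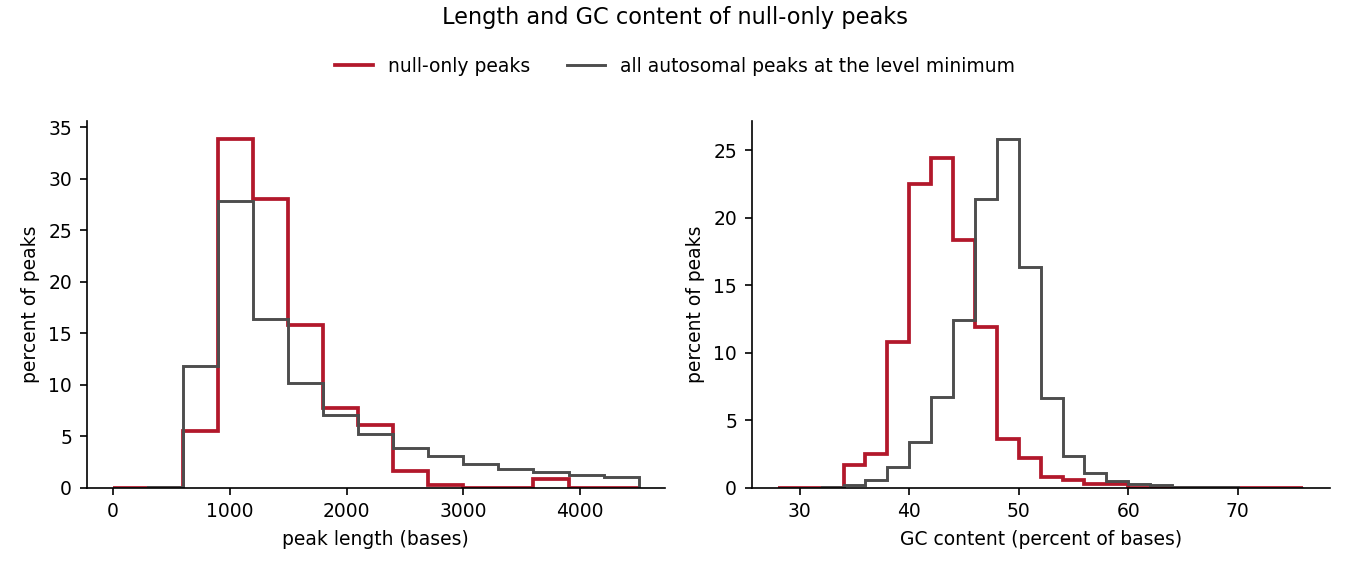
Percent of null-only peaks and of all autosomal peaks at the level minimum by peak length in bases (left, 300-base bins up to 4500) and by GC content (right, bins of 2%). The null-only peaks have a median GC content of 42.8% against 48.2%, and few are longer than 2250 bases.

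A core CTCF motif was present in 64 of 360 members (17.8%, Wilson 95% interval 14.2 to 22.1), against 7.47% of all autosomal peaks at the level minimum and 5.44% of those between 750 and 3750 bases. The share was 19.8% among null-raised peaks with MommeD43-GFP 0.5 to 1 above control and 19% among those with MommeD43-GFP at least 1 above. Among peaks of the members' length range, the motif was held by 13.0% of members and 14.4% of all peaks under 40% GC, and by 20.7% of members and 11.1% of all peaks from 40% to under 45%. It was held by 15.7% of members and 4.42% of all peaks from 45% to under 50% GC, and by 6.67% of members (1 of 15) and 2.91% of all peaks at 50% or more. A looser pattern of 7 letters, AGGNGGC on either strand, which parts of the core pattern can also satisfy, was found in 57.2% of members and 64.2% of all peaks. Over the 63 members with a core match outside chromosome 18, the match lay a median of 106.5 bases from the peak centre, and within 150 bases of it in 36 (57.1%). Members with the motif were longer than those without, 1500 against 1200 bases at the median. Their median level was higher in every genotype: 1.67 against 1.1 in del/del, 0.66 against 0.26 in MommeD43-GFP and 0.52 against -0.07 in control. With the motif del/del was a median of 1.12 above control and without it 1.11, both within what the rule allows.

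Examples with a motif match included the intron of *Satb1* shown above. A peak near *Gm26520* had 2.05 in del/del, 0.97 in MommeD43-GFP and 0.75 in control. A peak near *Gm8016* had 1.85 in del/del, 0.58 in MommeD43-GFP and 0.50 in control. A peak near *Gm12368* had 2.53 in del/del, 1.72 in MommeD43-GFP and 1.26 in control. At *Tmem132c*, a transmembrane protein gene, a motif-bearing intergenic peak had 3.26 in del/del, 2.63 in MommeD43-GFP and 2.18 in control.

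By location, 157 members (43.6%, Wilson 95% interval 38.6 to 48.8) were intergenic, 155 (43.1%, 38.0 to 48.2) lay in gene bodies and 48 (13.3%, 10.2 to 17.2) lay within 1 kb of a transcript start. Over all autosomal peaks at the level minimum the shares were 33.8% intergenic, 47.2% gene body and 19% promoter. Of the 197 members that overlapped a gene, 123 touched introns only and 74 touched an exon, and 157 of the genes were protein coding, 17 lincRNA, 8 immunoglobulin V and 4 T-cell receptor V genes. The gene was protein coding at 43.6% of members and 56.5% of all autosomal peaks at the level minimum, and lincRNA at 4.72% and 4.52%. Of all peaks at that level 69399 overlapped a gene, with 36760 in introns only and 32639 at an exon. The gene was an immunoglobulin V gene at 23 of these and a T-cell receptor V gene at 32. A gene name could be given to 328 members, with 319 different labels, and 32 lay more than 50 kb from any start. Predicted genes with Gm names labelled 95 members (29%) and 21% of all labelled peaks. No gene body held 3 or more members. *Plag1*, a zinc finger transcription factor gene, had a pair of intronic members. The higher of these had 1.30 in del/del, 0.61 in MommeD43-GFP and 0.16 in control.

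Among the 48 promoter members, 23 overlapped a protein-coding gene and 12 overlapped an antigen receptor V segment, 8 of immunoglobulin and 4 of T-cell receptor genes. Their median GC content was 44.5%, against 49.9% for all promoter peaks at the level minimum, and 7 had 50% GC or more. A peak beside *Ntf3*, which encodes the neurotrophin NT-3, had 1.37 in del/del, 0.28 in MommeD43-GFP and -0.18 in control, and another member lay in an *Ntf3* intron. At *Zeb2*, a zinc finger homeobox repressor gene active in neural crest and cortex, the levels were 1.27 in del/del, 0.74 in MommeD43-GFP and 0.27 in control. At *Nlgn1*, which encodes the postsynaptic adhesion protein neuroligin 1, they were 1.71 in del/del, 0.93 in MommeD43-GFP and 0.70 in control. Repeated sequence was common in these peaks: 18 of the 48 had 75-base windows that recur in the genome at 10% or more of the windows tested.

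Repeated sequence was then counted over all members. At least 1 repeated 75-base window was found in 95 (26.4%) of the members, against 19.9% of all autosomal peaks at the level minimum. At least 10% of windows recurred in 47 members (13.1%) and in 2.62% of all peaks, and in 4.41% and 3.16% of the null-raised peaks with MommeD43-GFP 0.5 to 1 and at least 1 above control. Per the study's methods Bowtie2 was run with its default settings, under which a read that maps equally well to several positions is reported at a single position picked among them. The part of such reads in the levels was not tested.

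Of 14 lists of loci chosen from SMCHD1 and NSC biology, 10 held a member. In all, 22 of 4776 listed peaks at the level minimum (0.461%) met the rule, against 0.336% of all autosomal peaks at that level. The *Hox* clusters, which pattern the body axis and are known SMCHD1 targets, had 2 of 42 peaks as members, against 0.336% in the background. In *Hoxd11* the level was 2.46 in del/del, 1.82 in MommeD43-GFP and 1.33 in control. In *Hoxc10* it was 1.28 in del/del, 0.47 in MommeD43-GFP and 0.20 in control. The median *Hox* peak was 0.09 above control in del/del and -0.08 in MommeD43-GFP.

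Clustered protocadherins, the cell-surface identity genes of neurons, had 0 of 47 peaks as members although their median null difference was 0.30. Imprinted genes had 0 of 229, keratins 0 of 96 and other cadherins 0 of 315. Olfactory receptors had 4 of 383, and vomeronasal receptors had 1 of 125. In *Vmn2r9* the level was 1.16 in del/del, 0.42 in MommeD43-GFP and -0.03 in control. Among peaks labelled by olfactory receptor genes, the one near *Olfr836* had 0.51 in del/del, -0.47 in MommeD43-GFP and -0.84 in control. In this list *Gm20429* also counted, because its peak overlaps a listed gene.

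Of 193 peaks at NSC transcription factors 1 was a member, near *Meis1*, a TALE homeobox gene (0.97 in del/del, 0.25 in MommeD43-GFP and -0.05 in control). The Notch pathway, which maintains neural stem cells, had 2 of 168. In *Hey2*, a Notch-induced repressor gene, the level was 0.25 in del/del, -0.64 in MommeD43-GFP and -1.0 in control. In *Maml2*, a Notch co-activator gene, it was 1.15 in del/del, 0.35 in MommeD43-GFP and -0.06 in control. The list of CTCF and cohesin machinery had 1 of 52, in *Smc5* (0.66 in del/del, 0.04 in MommeD43-GFP and -0.40 in control). Its product is a subunit of the SMC complex for DNA repair and not of cohesin.

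Synaptic adhesion and axon guidance genes had 5 of 918 peaks as members, at *Lrrc4c*, *Cntnap4*, *Sema5a*, *Slit2* and *Nlgn1*. In *Lrrc4c*, which encodes the netrin-G ligand NGL-1, the level was 0.40 in del/del, -0.45 in MommeD43-GFP and -0.90 in control. Glutamate and GABA receptors had 2 of 336 peaks as members, including a peak in *Gabra5*, a GABA-A receptor subunit gene. The *Gabra5* peak had 1.42 in del/del, 0.42 in MommeD43-GFP and 0.40 in control, so that MommeD43-GFP differed from control by 0.02 ± 0.15. Ion channels had 3 of 911, and in *Kcnh8*, a potassium channel gene, the level was 0.64 in del/del, -0.61 in MommeD43-GFP and -0.48 in control. Zinc finger genes had 1 of 998, in *Zfp697*. The shares in the 3 largest lists (0.100% to 0.545%) straddle the background of 0.336%, and the counts in the others are too small to set against it.

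The largest group of neighbouring members was in the immunoglobulin heavy chain (*Igh*) locus, whose V, D and J segments are joined in B cells. A group of 8 members lay between 113587501 and 113912550 on chromosome 12, at *Ighv2-2*, *Ighv2-3*, *Ighv5-6*, *Ighv5-12*, *Ighv5-9-1*, *Ighv2-6-8*, *Ighv5-15* and *Ighv7-2*. *Ighv2-3* had 2.57 in del/del, 1.86 in MommeD43-GFP and 1.38 in control. *Ighv2-2* had 1.31 in del/del, 0.22 in MommeD43-GFP and 0.16 in control. *Ighv5-15* had 1.96 in del/del, 0.99 in MommeD43-GFP and 0.83 in control. Over the 8 members del/del was 1.0 to 1.19 above control and MommeD43-GFP 0.07 to 0.48 above. Repeated 75-base windows made up 0% of the windows tested at *Ighv7-2* and up to 25% at *Ighv5-6*. Another member near the diversity segment *Ighd1-1* had 2.16 in del/del, 1.24 in MommeD43-GFP and 1.12 in control (chr12:113484151-113486850).

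Over the 2.44 Mb of heavy-chain V genes (chr12:113572927-116010093) there were 37 peaks at the level minimum, of which 10 were null-raised and 8 were members. Del/del was above control at each of the 23 peaks from the first V gene to *Ighv11-2*, with a median difference of 0.88 in del/del and 0.27 in MommeD43-GFP. The non-members of this stretch included *Ighv5-2* (2.09 in del/del, 1.34 in MommeD43-GFP and 1.21 in control) and *Ighv5-4*, which was 1.06 above control in del/del and missed the rule by its MommeD43-GFP difference of 0.51. The 4 peaks that follow the last member, *Ighv4-1*, *Ighv11-1*, *Ighv4-2* and *Ighv11-2*, were 0.66 to 1.5 above control in del/del and 0.42 to 0.69 in MommeD43-GFP. From the next peak on, the median del/del difference of 14 peaks was -0.07, and del/del was above control at 5 of them. This boundary was drawn from the values themselves, at the first peak where del/del was below control.

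Of the 37 peaks 17 held the core motif, and all 17 were above control in del/del, by 0.34 to 1.19. The 20 without it ranged from -0.68 to 1.5, and 11 were above control. All 17 with the motif lay among the 23 peaks as far as *Ighv11-2*, and 0 of the 14 later peaks held it. Within that first stretch the peaks without the motif were above control too. Motif and position therefore cannot be told apart here. Of the 8 members 7 held the motif, all except *Ighv7-2*. In each of the 7 the motif ran on the strand of its V gene, as in the sites printed above, and began 55 to 63 bases past the annotated end of the gene. The 10 non-member V genes with the motif had it on that strand too, 58 or 60 bases past the end. The core motif was thus present downstream of V genes that met the rule and of V genes that did not.

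**Figure D4:**
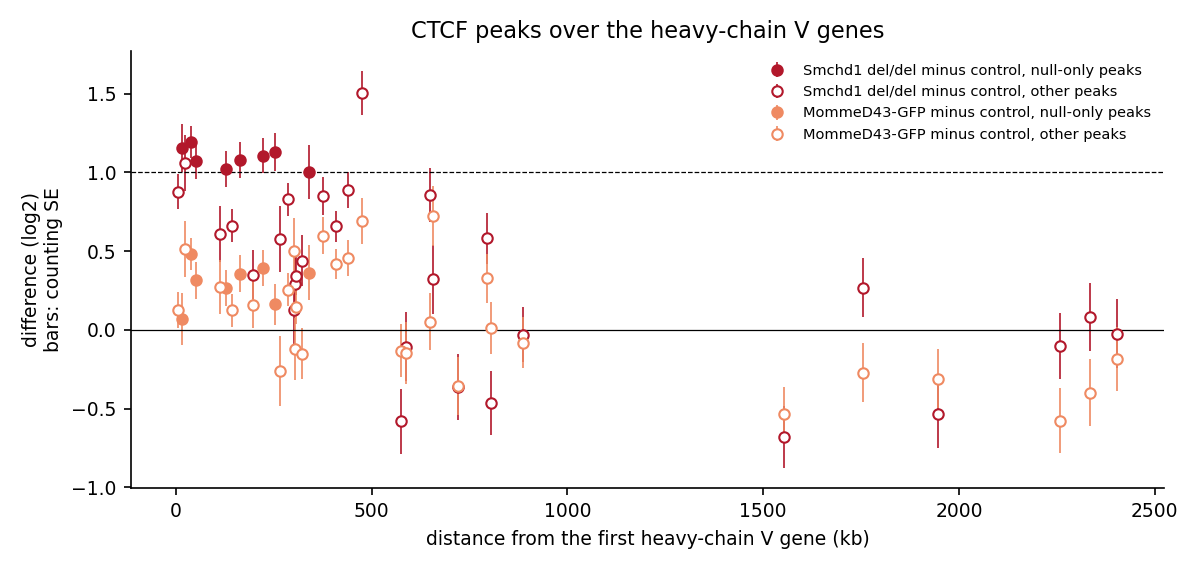
Difference from control in log2 at the 37 CTCF peaks over the heavy-chain V genes, by distance in kb from the V gene at the start of the region, with the counting standard error as bars. Filled points are the 8 null-only peaks, and the dashed line marks the null threshold of 1. The members lie within 339 kb of the start, and del/del exceeds control at every peak as far as 475 kb.

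T-cell receptor V segments were also represented. Of 64 peaks labelled by the alpha and delta receptor segments on chromosome 14, 11 were null-raised and 4 were members. *Trav10* had 1.12 in del/del, 0.34 in MommeD43-GFP and -0.15 in control. *Trav7-1* had 1.27 in del/del, 0.57 in MommeD43-GFP and 0.13 in control. None of the 4 held the core motif. Over the 64 peaks the median difference was 0.33 in del/del and 0.18 in MommeD43-GFP. On chromosome 6 a beta segment, *Trbv12-2*, had 1.85 in del/del, 1.02 in MommeD43-GFP and 0.74 in control.

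Apart from these loci most members stood alone. With gaps of at most 100 kb joined, 302 members had no partner, and the other 58 (16.1%) formed 19 pairs, 4 groups of 3 and the *Ighv* group of 8. A member lay within 100 kb of 2.51% of the other autosomal peaks at the level minimum. Within 10 kb the shares were 2.50% of members and 0.342% of other peaks, and within 1 Mb they were 45% and 20.4%. The median distance from a member to the nearest other was 1411 kb. Of the 720 peaks at the level minimum directly beside a member, 28 (3.89%) were members too. After peaks with any repeated window were left out, 265 members remained and 7.92% of them had a partner within 100 kb, against 16.1% of all 360.

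The groups of 3 fell on chromosomes 7 and 17. On chromosome 7, 3 members lay at the *Trim* genes, which include relatives of the antiviral factor TRIM5. *Trim6* had 2.43 in del/del, 1.66 in MommeD43-GFP and 1.38 in control. *Trim34a* had 1.44 in del/del, 0.66 in MommeD43-GFP and 0.34 in control, and *Trim12a* had 1.32 in del/del, -0.07 in MommeD43-GFP and 0.26 in control. A further group lay at and downstream of *Cyp2b19*, where the promoter peak had 2.15 in del/del, 1.32 in MommeD43-GFP and 0.96 in control. The middle peak of that group had 2.36 in del/del, 1.20 in MommeD43-GFP and 1.36 in control. The group at *Gm45104*, *Gm8314* and *Gm4880* had del/del 1.17 to 1.37 above control and MommeD43-GFP between -0.26 and 0.29. On chromosome 17 the group of *AC166110.4*, *Tcp10c* and *Gm8597* had repeated windows at 50% to 62.5% of the windows tested. Its peak near *AC166110.4* had 3.34 in del/del, 2.68 in MommeD43-GFP and 2.20 in control.

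By chromosome the share of peaks at the level minimum that were members ran from 0.161% on chromosome 5 (12 peaks) to 0.588% on chromosome 7 (43 peaks), with 0.575% on chromosome 12 (29 peaks) and 0.475% on chromosome 13 (24 peaks). Over all autosomes 360 of the 1469 null-raised peaks were null-only. By chromosome that share was highest on chromosome 7 (39.4%), followed by chromosome 12 (33.7%), and lowest on chromosome 1 (16.3%). The windows of 1 Mb with the most members were 113 Mb on chromosome 12 (9 of 59 peaks), 26 Mb on chromosome 7 (5 of 15), 40 Mb on chromosome 7 (5 of 35) and 68 Mb on chromosome 13 (4 of 31). In the 26 Mb window, which holds *Cyp2b9*, *Cyp2b19* and *Cyp2a22*, the other 10 peaks had a median null difference of 0.49 and ranged from -1.36 to 1.64. In the 68 Mb window the other 27 peaks had a median of -0.10, and 9 were above control. The other peaks of both these 1-Mb windows thus lay on either side of control.

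**Figure D5:**
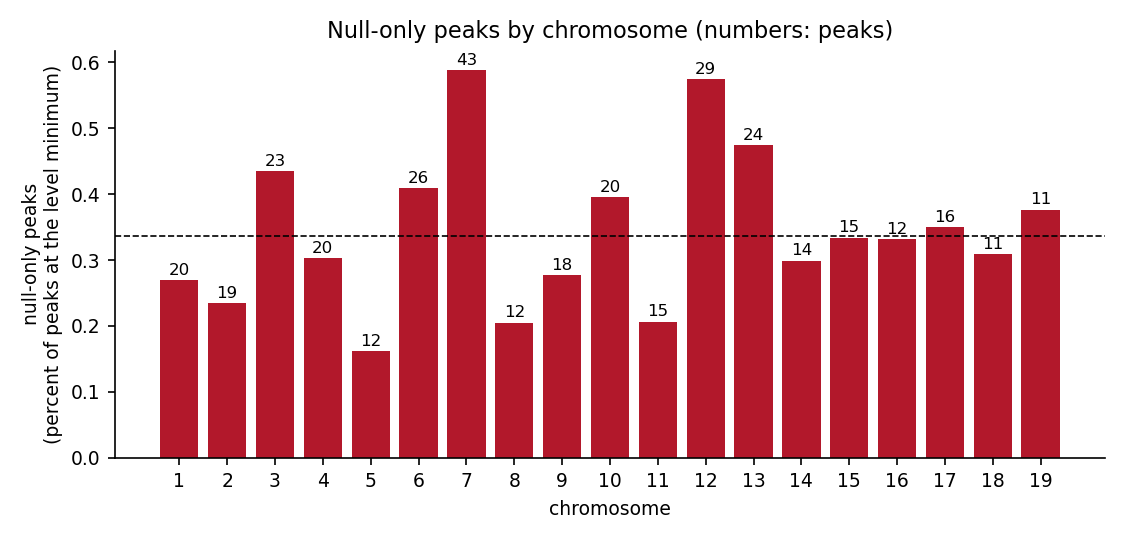
Null-only peaks as a percent of the peaks at the level minimum on each autosome, with the number of null-only peaks above each bar and the share over all autosomes (0.336%) as a dashed line. Chromosomes 7 and 12 have the highest shares, 0.588% and 0.575%.

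Peaks close to a member leaned the same way. For the 208 members with other peaks at the level minimum within 10 kb that were not themselves null-raised, the median of these neighbours' del/del differences was 0.16, and it was above 0 at 132 members (63.5%). Between 10 and 100 kb it was 0.05, and between 100 kb and 1 Mb it was -0.01, against -0.04 over all autosomal peaks at the level minimum. At these distances it was above 0 at 56.2% and 45.3% of members with such neighbours. Of all single peaks at that level 45.8% were above 0. The MommeD43-GFP differences of the nearest neighbours had a median of 0.03, against -4.6e-05 over all peaks at that level.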

How the data were processed

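Per the labels and the study's methods, 75-base reads were trimmed (Trim Galore 0.4.4, cutadapt 2.9), checked (FastQC 0.11.8), mapped to GRCm38 (Bowtie2 2.3.4.1, SAMtools 1.7, default settings) and extended by 180 bp, and peaks were called per genotype in SeqMonk and merged. R 4.2.0 was also named. The labels name patch release p5 and the methods p6, which share their chromosome coordinates. Values were deposited as log2 RPM (reads scaled to a library of 1 M) for each merged peak, averaged by the authors over the libraries of a genotype and not divided by length. Reads were recovered from the steps between the lowest values (0 entered as 0.9, tolerance 0.01), and all of the 200 lowest values in each column came out whole. They gave the counting errors.

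Genes came from GENCODE M21 (1 kb promoter, then gene body, else intergenic, with the gene overlapped or the nearest start within 50 kb as label) and bases from GRCm38. A 75-base window, taken every 25 bases, was called repeated when it occurred again in the genome on either strand. No test was run, because each genotype has 1 pooled column. The members, lists and tests were chosen with earlier results of these data known. Named peaks are the 10 largest null differences, the 5 lowest MommeD43-GFP differences, the 5 highest means, the 5 longest and 2 shortest, up to 8 with the motif, the largest groups, up to 2 per list and those beside each threshold. Some peaks that this rule names are not reported here. Others (promoter examples, the 1-Mb windows, the peaks clear of both thresholds, the antigen receptor non-members, the other peaks below control) were chosen after their values were seen. Scripts were tested on simulated data and ran under Python 3.11.15 with matplotlib 3.10.9, scipy 1.17.1, pandas 2.3.3 and numpy 2.4.6.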

Additional observations from a re-analysis of the deposited data

How the results depend on the processing

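No paired analysis was possible because the table gives 1 pooled column per genotype, and for the same reason no library could be left out. With no level filter 1723 peaks met the rule, with a median length of 450 bases, a median GC content of 45%, 8.36% at promoters, 24.9% with another within 100 kb and 4.64% with a core motif. Over all 217130 autosomal peaks the medians were 750 bases and 47.8% GC, with 13.0% at promoters and 3.83% with a core motif. Of the peaks that did not meet the rule, 14.3% had one that did within 100 kb. With del/del at least 1.5 above control 17 peaks were left (GC 45.1%, promoters 5.88%, partner within 100 kb 0%, motif 11.8%). With MommeD43-GFP below control 23 were left (length 1050 bases, GC 45.4%, promoters 30.4%, partner 0%). Differences centred within 20 bins of GC content gave 335 peaks with a GC content of 43.7% and a partner share of 8.96%. Changed definitions moved the promoter share to 18.9% (2 kb), the partner share to 10.3% (50 kb) and 34.4% (500 kb), and the motif share to 57.2% (7 letters). Centring of each column gave 467 peaks, quantile normalization 369 and a mean of at least 0 gave 275, sharing 332, 310 and 275 peaks with the 360. Added after seeing the data, leaving out peaks with repeated windows gave 265 peaks, 8.30% at promoters, 7.92% with a partner and 13.6% with a motif. Leaving out chromosome 7 or the *Igh* peaks moved the partner share to 13.6% and 14.2%. In all, 41 of the values stayed within 1.5 times the count or within the 95% interval and 25 did not. Because that interval treats the members as independent, these counts are a description and not a test.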

Other observations

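The same thresholds were applied to the X chromosome, which the autosomal rule leaves out. They were met by 90 of 2830 peaks at the level minimum (3.18%), against 0.336% of autosomal peaks. Of the 2830 peaks 236 were null-raised, against 1469 of 107125 on the autosomes (1.37%). The study, which tested single libraries, reports no X enrichment among the peaks it called more strongly bound in the null. The counts here rest on pooled values, other thresholds and no test. The lines are female. Among the 90 the largest null difference was at a start of *Mid1*, a ubiquitin ligase gene at the border of the pseudoautosomal region. Its level was 5.61 in del/del, 2.3 in MommeD43-GFP and 2.09 in control. At *Atrx*, a chromatin remodeller gene, it was 1.49 in del/del, 0.86 in MommeD43-GFP and 0.37 in control.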
